A study of Caenorhabditis elegans with 2 samples.

Results

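The genes described here encode the subunits of the proteasome, and their promoters and gene bodies were examined for enrichment of a tagged T-box transcription factor in *Caenorhabditis elegans*. Members were the protein-coding genes of the Ensembl WBcel235 annotation named pas-, pbs-, rpt- or rpn- and a digit. There were 33 of them among 19985 protein-coding genes: 7 pas genes, 7 pbs genes, 6 rpt genes and 13 rpn genes. Both libraries of the series came from 1 group, whole worms of strain OP636, which carries the mutation unc-119(tm4063) on chromosome III and the integrated transgene wgIs636. The transgene expresses TBX-9, a T-box factor that acts in embryonic morphogenesis, with GFP and FLAG at its C terminus. Mixed-sex young adults were collected 63 hours after synchronization at L1, and chromatin was immunoprecipitated with an antibody against GFP. The labels call the libraries biological replicates. They name neither the promoter that drives the transgene nor the tissues that hold the protein, and each library is a pool of whole animals, so strong enrichment in a few cells and weak enrichment in many cannot be told apart. No second condition exists, and the control experiment named in the labels was not analysed here, so every comparison is a description with no test.

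The proteasome is the ATP-dependent protease that degrades proteins marked with ubiquitin. Its core particle is a barrel of stacked rings, in which the alpha subunits (pas genes) form the outer gated rings and the beta subunits (pbs genes) form the inner rings that hold the catalytic sites. The regulatory particle caps the barrel: a ring of ATPases (rpt genes) unfolds the substrate, and the non-ATPase subunits (rpn genes) bind ubiquitin, remove it and form the lid. Every cell needs the complex, and in *C. elegans* its subunit genes are induced together by the transcription factor SKN-1A when proteasome activity falls short.

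Most proteasome subunit genes had a peak in the relaxed lists, and none had one in the list of reproducible peaks. A relaxed list is the authors' permissive set of peaks together with background, ranked here by the deposited signal value, and a gene was counted when a summit lay within 1000 bp of one of its transcript starts. In the list of both libraries pooled, 29 of 33 members had such a summit, 87.9%, against 51.4% of all protein-coding genes. Replicate 1 had one at 26 members, 78.8%, against 47.4% of all coding genes, and replicate 2 at 29 members, 87.9%, against 51.3%. The members were thus more often near a summit than coding genes in general in all 3 relaxed lists. In both replicates 22 members had a summit, 66.7%, against 31.9% of coding genes, and in all 3 relaxed lists 21 members, 63.6%, against 29.7%. Each of the 33 had a summit in at least 1 relaxed list, against 69.3% of coding genes. The list past the irreproducible discovery rate (IDR) threshold, with 169 peaks, had a summit within 1000 bp of 0.500% of coding genes and of 0 of 33 members, which allows a share of up to 9.09%. At the genome-wide share 0.165 members would lie there, so a lower share than that of other genes was not detectable with 33 genes.

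The member peaks were modest in strength. Over the 29 members with a pooled summit the signal value ran from 19.2 to 73.7 with a median of 30.9, against a median of 27.8 over the 10275 coding genes with one. Replicate 1 gave a member median of 21.6 against 20.0, and replicate 2 gave 17.7 against 14.4. These levels are on the authors' scale, whose normalization is not stated, and are compared within a list only. Among the 1000 strongest pooled peaks, 3 members had a summit, 9.09% against 3.33% of coding genes. Down to rank 5000 there were 12 members, 36.4% against 13.2%, and down to rank 10000 there were 15, 45.5% against 23.1%. With a deposited q of 0.05 or less, 5 of 33 members had a pooled summit, and the share of coding genes was 5.49%. The median pooled q was 0.484 over members with a summit and 0.621 over coding genes with one, so most member peaks were weakly supported. The members' share was above that of coding genes at every rank shown from 500 on, and at rank 250 no member was reached. A distance of 500 bp left 17 of 33 members against 35.3% of coding genes, and one of 250 bp left 11 of 33 against 22.6%.

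**Figure D1:**
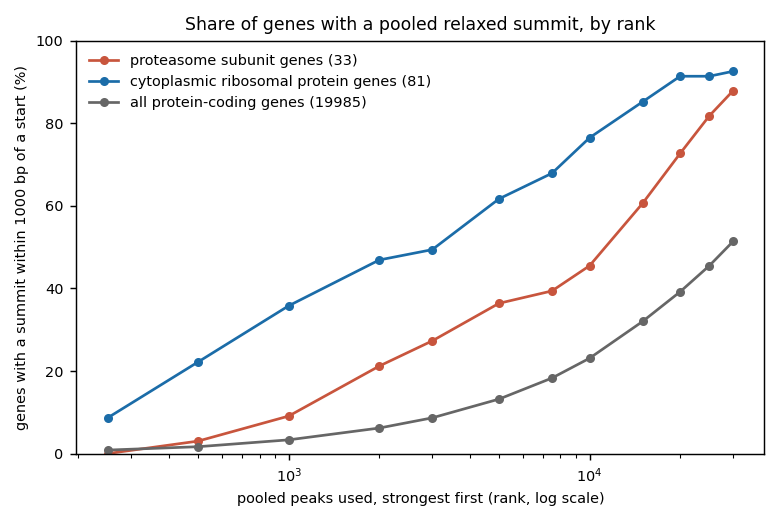
Share of genes, in percent, with a pooled relaxed summit within 1000 bp of a start (vertical axis) when only the strongest peaks down to a given rank are used (horizontal axis, log scale), for 33 proteasome subunit genes, 81 cytoplasmic ribosomal protein genes and 19985 protein-coding genes. The proteasome genes lie between the other lines from rank 500 on and end at 87.9%, beside 92.6% of the ribosomal protein genes and 51.4% of all coding genes.

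The sequences under 4 strong member summits are shown as examples. They are the 151 bases centred on the pooled summit of 4 of the members with the highest signal, read 5′ to 3′ on the gene's strand from the RefSeq genome of WBcel235. Members such as pas-5 (60.6) and rpn-10 (57.4) had a higher pooled signal than all of these but pas-1 and are not shown. Of the 29 pooled member summits, 18 were in the gene's own coding exons, and of the 4 shown that of rpt-3 alone was. Capitals mark GTCAT and ATCAT, cores of sites bound by SKN-1, and GGTGTG, a core of T-box sites, on either strand. The pas-1 window (chrV:14422454-14422604, minus strand) crosses an intron that follows a coding exon. The rpn-3 window (chrIII:8447114-8447264, plus strand) lies upstream of the gene. The rpt-3 window (chrIII:6489735-6489885, plus strand) spans the start of its gene, and the rpn-2 window (chrIII:6198566-6198716, plus strand) lies in the upstream spacer.

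pas-1: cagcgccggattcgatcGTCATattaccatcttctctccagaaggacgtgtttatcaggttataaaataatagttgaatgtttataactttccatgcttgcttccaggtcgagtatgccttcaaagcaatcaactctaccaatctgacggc
rpn-3: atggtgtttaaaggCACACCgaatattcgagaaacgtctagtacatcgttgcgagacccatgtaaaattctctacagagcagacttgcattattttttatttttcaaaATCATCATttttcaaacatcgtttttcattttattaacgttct
rpt-3: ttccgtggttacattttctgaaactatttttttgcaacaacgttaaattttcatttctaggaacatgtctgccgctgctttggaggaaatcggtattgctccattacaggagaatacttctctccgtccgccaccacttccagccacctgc
rpn-2: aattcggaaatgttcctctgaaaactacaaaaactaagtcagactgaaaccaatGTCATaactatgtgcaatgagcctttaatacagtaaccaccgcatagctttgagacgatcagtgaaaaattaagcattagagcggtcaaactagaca

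The alpha ring genes held both the strongest member and most of the members without a pooled peak. For pas-1 (V, 14421566 to 14422618) the signal value was 73.7 in the pooled list, rank 383 of 30000, 38.4 in replicate 1, rank 851 of 25659, and 37.8 in replicate 2, rank 286 of 30000. The 3 summits lay 71 to 192 bp downstream of the start, those of the pool and replicate 2 inside the window shown above and that of replicate 1 beyond it, and the deposited q was 0.0137, 0.0273 and 0.00811. This was the highest member in the pooled list and in replicate 2, and its upstream neighbour on the same strand ended 106 bp away. For pas-5 (I, 10566350 to 10567300) the values were 60.6 pooled, rank 734, 34.9 in replicate 1, rank 1274, and 27.4 in replicate 2, rank 1066. All 3 summits stood 942 to 965 bp upstream of the start, within 250 bp of the snoRNA gene F25H2.15, so the pas-5 peak is also a peak beside a noncoding gene. With pas-1, pas-5 was the member with a q of 0.05 or less in both replicates, 0.0349 and 0.00811. For pas-7 (II, 10098782 to 10099854) the signal was 39.4 pooled, rank 3545, 16.5 in replicate 1, rank 17166, and 21.1 in replicate 2, rank 3165, with the summits in its coding exons. The pas-2 summit (24.3 pooled, rank 16216) lay 963 bp upstream in an intron of another gene, with the start of D1054.1 closer at 812 bp, and replicate 1 had none. The other alpha genes lacked a pooled summit: pas-3 had weak peaks in both replicates (14.6 and 10.4) at places 418 bp apart, pas-4 had one in replicate 1 alone (15.3), and pas-6 one in replicate 2 alone (19.8).

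Of the beta ring genes, 6 of 7 had a pooled summit. For pbs-2 (I, 12967216 to 12968280) the signal value was 50.9 pooled, rank 1367, 32.3 in replicate 1, rank 1737, and 18.7 in replicate 2, rank 4987. For pbs-5 (I, 14719167 to 14720477), which encodes a catalytic subunit, it was 46.9 pooled, rank 1824, 29.8 in replicate 1, rank 2389, and 13.6 in replicate 2, rank 13603. For pbs-7 (I, 8695205 to 8696301) it was 38.4 pooled, rank 3884, 22.5 in replicate 1, rank 6861, and 17.8 in replicate 2, rank 5930. The summits of these genes lay inside the gene, in coding exons 276 to 729 bp downstream of the start, and the peaks of both replicates overlapped at each. The pbs-3 peaks (36.5 pooled, 20.2 and 17.9 in the replicates) also overlapped, 46 to 130 bp downstream of the start. The pbs-4 summit (27.7 pooled, q of 0.625) was found in replicate 2 (21.6, q of 0.0444) and not in replicate 1. The weakest pooled value of any member was that of pbs-6, 19.2 at rank 26818. For pbs-1 there was a relaxed peak in replicate 2 alone (14.7), 43 bp from the start of K08D12.3.

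All 6 ATPase genes of the base had a pooled summit, at middle to low ranks for most. The pooled q ran from 0.0535 for rpt-3 to 0.904 for rpt-6. For rpt-3 (III, 6489793 to 6491282) the signal value was 47.3 pooled, rank 1784, 32.9 in replicate 1, rank 1576, and 13.6 in replicate 2, rank 13784. Its summits fell 17 to 23 bp downstream of the start in the 3 lists, the closest placing of any member in the pooled list. For rpt-2 (V, 6016059 to 6017669) the values were 35.0 pooled, rank 5437, 22.1 in replicate 1, rank 7302, and 16.8 in replicate 2, rank 7330, all in coding exons. For rpt-4 (II, 42207 to 46216) they were 28.0 pooled, rank 11127, 22.6 in replicate 1, rank 6773, and 17.7 in replicate 2, rank 6078, with the strongest peaks of the replicates 449 bp apart. The rpt-2 replicates overlapped and those of rpt-4 did not. The rpt-1 peak (27.5 pooled) was centred 21 bp upstream of the start and had values of 16.8 and 18.5 in the replicates. Each of rpt-5 (21.1 pooled) and rpt-6 (19.9 pooled) had a peak in 1 replicate, replicate 2 for rpt-5 (10.7) and replicate 1 for rpt-6 (15.0).

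The non-ATPase genes all had a pooled summit, 13 of 13, with a wide range of strength. The pooled q ran from 0.0150 for rpn-10 to 0.877 for rpn-9. For rpn-10 (I, 10730712 to 10732424), the ubiquitin receptor, the signal value was 57.4 pooled, rank 899, 26.1 in replicate 1, rank 4030, and 32.7 in replicate 2, rank 518. For rpn-3 (III, 8447353 to 8449346), a lid subunit, it was 52.7 pooled, rank 1200, 39.3 in replicate 1, rank 775, and 14.5 in replicate 2, rank 11505. For rpn-11 (II, 4043055 to 4044546), the deubiquitinase of the lid, it was 45.4 pooled, rank 2082, 39.9 in replicate 1, rank 734, and 18.7 in replicate 2, rank 5016. Of these, rpn-10 alone had its strongest replicate peaks at the same place, in a coding exon 117 to 172 bp downstream of the start. The replicate 2 summit of rpn-3 stood 697 bp from that of replicate 1, in a coding exon of the divergent neighbour hsp-110, a chaperone gene whose start is the closer one there, and the replicate 2 summit of rpn-11 lay 953 bp from that of replicate 1. The rpn-3 peak of the pool lay within 250 bp of the noncoding gene C30C11.14. For rpn-2 (III, 6199184 to 6202594), a large scaffold subunit, the values were 41.5 pooled, rank 2920, 30.1 in replicate 1, rank 2317, and 9.5 in replicate 2, rank 29502, near the bottom of that list. The 3 rpn-2 summits stood within 2 bp of each other, 227 bp or less from the start of the neighbour C23G10.7.

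The remaining non-ATPase genes had pooled values of 20.8 to 31.5. The higher were rpn-8, a lid subunit (31.5), rpn-12, another (30.9), rpn-13, a ubiquitin receptor (28.2), and rpn-7 (28.1). The rpn-8 summit was in an intron within 250 bp of the snoRNA gene R12E2.17, and replicate 2 had none. The rpn-12 values were 21.0 in replicate 1 (q of 0.529) and 22.8 in replicate 2 (q of 0.0259), and its pooled q was 0.484. For rpn-13 a peak was present in replicate 2 alone (16.6). Lower values were those of rpn-6.2 (22.9), rpn-5 (22.8), rpn-1 (22.6), rpn-6.1 (21.1) and rpn-9 (20.8). Of the paralogous lid genes, rpn-6.1 had peaks in both replicates (19.9 and 12.9), inside its gene. Its pooled peak lay 866 bp upstream in an intron of another gene, with the start of F57B9.1 closer at 527 bp. The paralog rpn-6.2 had a peak in replicate 1 alone (23.4). A peak in replicate 2 alone (9.9) was found for rpn-1. The strongest replicate peaks of rpn-5 (17.7 and 13.0), rpn-7 (15.3 and 20.4) and rpn-9 (13.8 and 12.6) did not overlap, with summits 566, 791 and 1011 bp apart. The pooled and replicate 1 summits of rpn-9, in its coding exon, were closer to the start of fndc-1, at 736 and 737 bp.

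**Figure D2:**
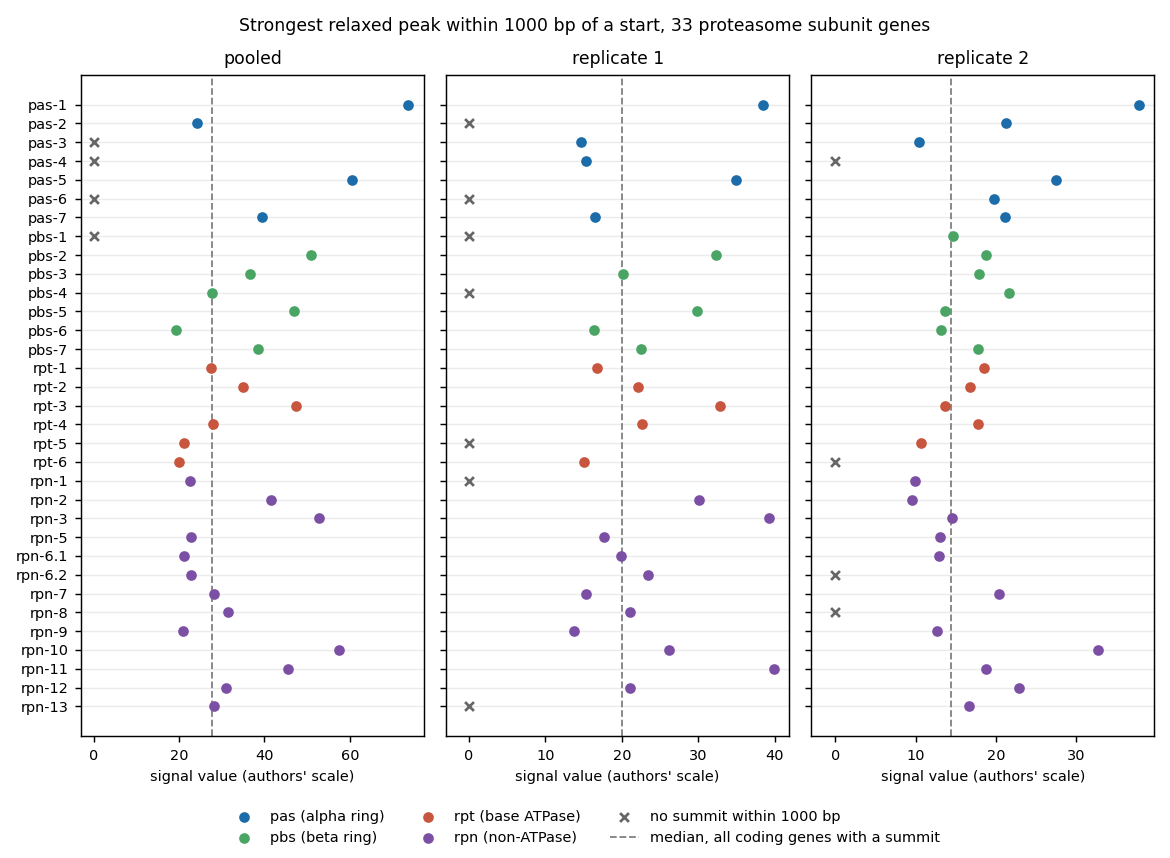
Signal value on the authors' scale (horizontal axis) of the strongest relaxed peak within 1000 bp of a start for each of the 33 genes (rows, coloured by class) in the pooled list and in each replicate. Crosses at 0 mark genes with no summit, 4 in the pooled list, 7 in replicate 1 and 4 in replicate 2, and dashed lines are the medians of all coding genes with a summit, 27.8, 20.0 and 14.4.

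Between classes in the pooled list, the regulatory particle had a summit at 19 of 19 genes and the core particle at 10 of 14. The share over all coding genes was 51.4%. In replicate 1 the counts were 16 of 19 and 10 of 14, beside 47.4% of coding genes. In replicate 2 the order was reversed, with 16 of 19 regulatory and 13 of 14 core genes, beside 51.3%. In strength the order was another: 7 of 14 core genes and 5 of 19 regulatory genes had a summit among the 5000 strongest pooled peaks. The share over all coding genes there was 13.2%. Among members with a pooled summit, the signal of the 4 pas genes ran from 24.3 to 73.7, and the median was 37.5 over 6 pbs genes, 27.8 over 6 rpt genes and 28.2 over 13 rpn genes. The ranges overlapped between all classes, from 19.2 to 73.7 for the core genes and from 19.9 to 57.4 for the regulatory genes. In both replicates 9 of 14 core and 13 of 19 regulatory genes had a summit, beside 31.9% of coding genes.

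The replicates gave overlapping positions for many members and differing strengths. Of the 22 members present in both replicates, 15 had strongest peaks that overlapped by at least 1 bp, 45.5% of the 33 against 16.2% of all coding genes. As a share of the genes present in both, these were 68.2% of members and 50.7% of coding genes. Some pair of peaks, not always the strongest, overlapped at 19 of the 22, 86.4% against 73.5% of the coding genes present in both. Summits within 100 bp of each other were found at 7 members, 21.2%, against 8.17% of coding genes. Across the 22 members Spearman's rho of the signal value between replicates was 0.32, and across the 6372 coding genes present in both it was 0.35; these are correlations across genes that share the same libraries. The order of members therefore differed by list. In replicate 1 the members with the highest signal were rpn-11 (39.9), rpn-3 (39.3), pas-1 (38.4) and pas-5 (34.9). In replicate 2 they were pas-1 (37.8), rpn-10 (32.7), pas-5 (27.4) and rpn-12 (22.8), so pas-1 and pas-5 were among the first 4 in both.

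**Figure D3:**
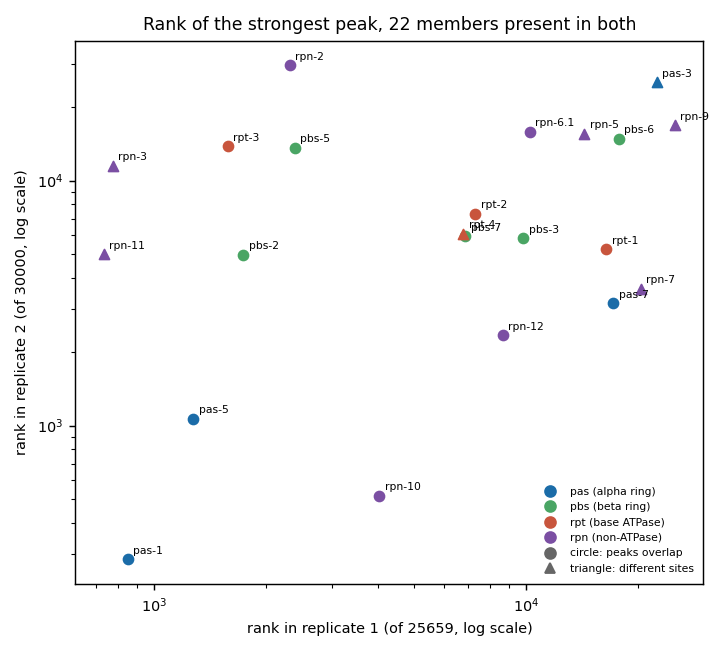
Rank of the strongest peak in replicate 1 (horizontal axis, of 25659) against replicate 2 (vertical axis, of 30000), both on log scales, for the 22 members with a summit in both. Circles (15) mark members whose strongest peaks overlap and triangles (7) those at different sites; pas-1 stands lowest at ranks 851 and 286, and rpn-2 at 2317 and 29502.

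Member summits lay inside the genes more often than those of coding genes at large. Of the 29 pooled summits, 21 were downstream of the nearest start, 72.4% against 55.5% over all coding genes with a summit, and 18 were in the gene's own coding exons, 62.1% against 30.4%. Replicate 1 gave 61.5% against 27.4% in own coding exons, and replicate 2 gave 72.4% against 33.4%. Fewer lay upstream of the gene, 7 in the pooled list, 24.1% against 39.5%. The median distance from start to summit was 543 bp over members and 430 bp over coding genes in the pooled list, 350 and 422 bp in replicate 1, and 556 and 450 bp in replicate 2, so it was not longer in every list. The members are short genes, with a median length of 1490 bp against 2026 bp, and 1 pooled member summit, that of rpn-12, fell within 250 bp of the gene's end, 3.45% against 6.31%. A member's own start was the closest coding start at 25 of 29 strongest summits, 86.2% against 86.0%. When a peak was counted only for its closest coding start, 27 members kept one, 81.8%, against 46.6% of coding genes.

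**Figure D4:**
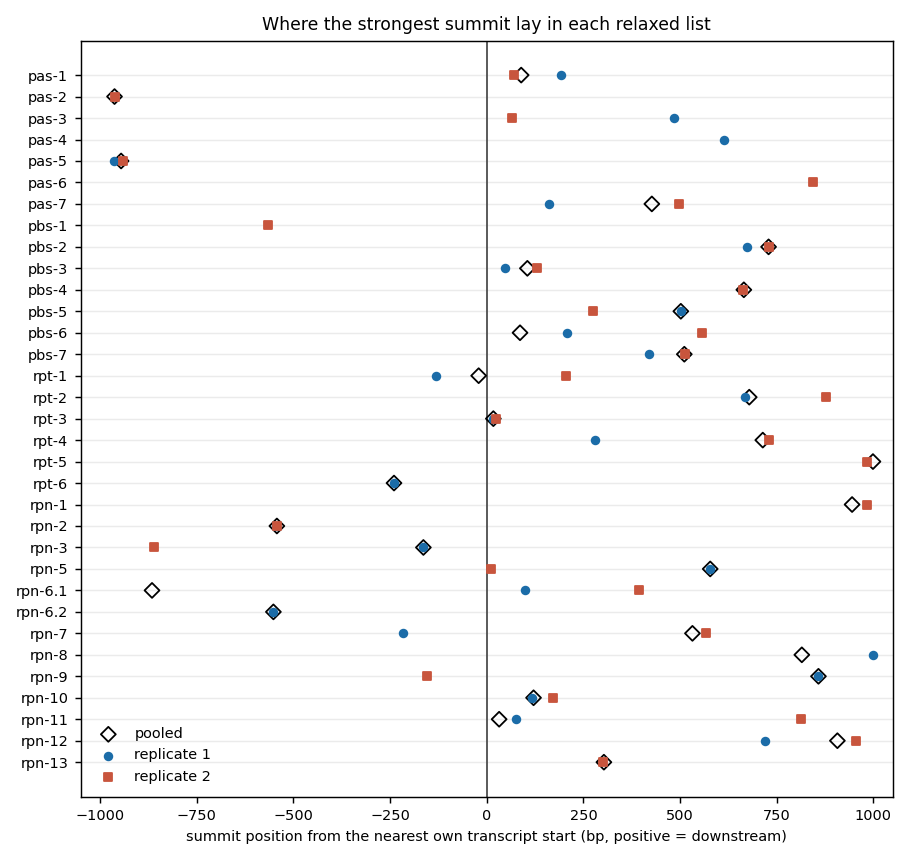
Position of the strongest summit from the nearest transcript start of the same gene in base pairs (horizontal axis, positive downstream) for the 33 genes (rows) in the pooled list (diamonds), replicate 1 (circles) and replicate 2 (squares). Of the 29 diamonds, 21 lie to the right of the start, and the 3 marks of pas-5, rpn-2 and rpt-3 fall close together.

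The surroundings of the members differ from those of an average gene. No member is on X, where 55.9% of coding genes had a pooled summit, against 50.7% on autosomes. Of the members, 10 are on chromosome I, 7 on II, 8 on III, 3 on IV and 5 on V. Another gene's start lay within 1000 bp of a start of 25 members, 75.8% against 25.3% of coding genes. Autosomal coding genes with such a neighbour had a pooled summit in 58.8% of cases and those without in 47.6%, and members in 21 of 25 and 8 of 8. Among autosomal genes with a single start, 45.8% had a pooled summit, and 21 of 25 such members did. The part of gene spacing in the members' share was not tested further. A snoRNA gene stood within 250 bp of 2 member summits, those of pas-5 and rpn-8, 6.90% against 0.623% of coding genes with a summit. A gene annotated as ncRNA stood near 1, that of rpn-3, 3.45% against 6.33%, and a tRNA gene of 0 against 1.76%, where a count of 0 allows up to 10.3%.

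The nearest IDR peaks lay outside the member genes, and which gene a peak belongs to was not tested. Within 2000 bp of a start there was an IDR summit at 3 members, 9.09% against 0.981% of coding genes. They were pbs-1, rpt-2 and rpn-12. For pbs-1 the summit, 1523 bp away with signal 122.4, stood 6 bp from the start of rpi-2. For rpt-2 it was 1825 bp away with signal 106.6, past the end of rpt-2 and beside the snoRNA gene F29G9.19. For rpn-12 it was 1995 bp away with signal 121.8 and stood 19 bp from the start of coa-7. An IDR peak of 238.4 at the spliced leader gene sls-2.4 lay 3027 bp from the start of rpn-8. No IDR peak overlapped a member's strongest relaxed peak, and no IDR summit lay in a member's gene body. The other members were at least 14535 bp from an IDR summit.

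Short sequence motifs were counted on both strands, in promoters taken as 250 bases before to 50 after the most upstream start and within 100 bp of pooled summits. GTCAT stood in 19 of 33 member promoters, 57.6% against 39.5% of all promoters, and at 15 of 29 member summits, 51.7% against 26.7% of all 30000 pooled summits. For summits in own coding exons alone the share was 8 of 18 members, 44.4%, against 28.9% of coding genes with such a summit. For summits elsewhere it was 7 of 11 members, 63.6%, against 25.1% of coding genes. ATCAT stood in 57.6% of member promoters against 55.6%, and at 48.3% of member summits against 38.5%. The T-box core GGTGTG was found in the promoters of pbs-4 and rpn-3, 6.06% against 7.60%, and at 2 of 29 summits, 6.90% against 6.06%. The longer GGTGTGA, which contains it, was found in 0 member promoters, which allows up to 9.09%, against 2.29%, and at 0 member summits, which allows up to 10.3%, against 1.73%. GAGAGAG, a repeat counted for comparison, was in 0 member promoters, with the same limit of 9.09%, against 6.79% and at 1 member summit against 4.55%. The median GC content within 100 bp of the summit was 41.8% for members and 39.8% for all pooled peaks. A match is a description of the letters and not of binding.

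Other parts of the ubiquitin system and other large complexes were set beside the subunits. Of 14 proteasome-associated genes, 9 had a pooled summit, 64.3%, led by uba-1, the ubiquitin-activating enzyme (74.6, rank 366), and ubq-1, a polyubiquitin gene (55.6, rank 992), both with the summit upstream of the start. Of 11 genes for CDC-48, the unfoldase that prepares substrates, and its cofactors, 6 had one, 54.5%, and cdc-48.1 had a value of 94.1 at rank 169, above every proteasome subunit, with ubxn-1 next (43.7). Of 8 genes of the SKN-1A pathway, which include the member rpn-10 (57.4), 6 had one, with skn-1 at 49.9 and its summit 51 bp upstream of the start. These shares, over peaks of any rank, lie between the 51.4% of all coding genes and the 87.9% of the subunits. The median pooled signal was 28.7 for the associated genes, 38.8 for the CDC-48 list and 37.9 for the SKN-1A list. For the subunits it was 30.9.

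Among other complexes, the ribosomal protein and CCT genes had shares close to or above that of the proteasome genes and the COP9 genes a lower one. The cytoplasmic ribosomal protein genes had a pooled summit at 75 of 81, 92.6%, with a median signal of 46.0, led by rpl-3 (174.3) and rps-6 (144.5), and 6 had an IDR summit. The CCT chaperonin genes, which fold actin and tubulin, had one at 7 of 8, 87.5%, with a median of 47.8, led by cct-8 (119.6, also an IDR peak) and cct-7 (57.5). The summits of cct-8 and cct-7 each stood within 250 bp of a gene annotated as ncRNA. The genes of translation factor eIF3 had one at 9 of 11, 81.8%, with a median of 27.8, led by eif-3.B (37.8) and eif-3.J (37.2). The COP9 signalosome, whose subunits resemble those of the proteasome lid, had one at 4 of 6 genes, 66.7%. Its median was 37.1, led by csn-6 (61.0) and csn-5 (47.7). Among the 5000 strongest pooled peaks, a summit stood at 50 of 81 ribosomal protein, 5 of 8 CCT and 3 of 11 eIF3 genes. The counts were 2 of 6 for COP9 and 12 of 33, 36.4%, for the proteasome, beside 13.2% of all coding genes. In the ubiquitin system they were 3 of 14 associated, 4 of 11 CDC-48 and 3 of 8 SKN-1A pathway genes. A pooled summit near a start was common among these complexes and not particular to the proteasome.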

How the data were processed

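The authors deposited narrowPeak lists for the 2 libraries. Those on ce11 were used: relaxed peaks of replicate 1 (25659), of replicate 2 (30000) and of the pool (30000), and 169 optimal IDR peaks, the relaxed ones derived from alignments of the libraries and a control, per the notes the authors deposited. No aligner, caller or version is named in these sources, and depth is unknown. The signal value and the −log10 q are the authors' per-peak values; how the deposited signal is scaled is not stated. Most peaks are 390 bp wide, and 10 pooled and 14 replicate 1 peaks are mitochondrial and count in the ranks. The ce10 lists were not used, as the annotation is of ce11.

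Summits (deposited start plus offset) were set against starts of protein-coding transcripts of Ensembl release 115; the strongest peak per gene was kept. Promoters were read from the RefSeq genome of WBcel235 at these starts. Coordinates count from 1. Sequences are shown for the 4 strongest members left after genes of 1 chromosome and windows with over 30 bases of UTR were set aside. Shares are over all 19985 coding genes. Values are given for the 10 members with the highest pooled signal, the 3 highest of each class, and the 2 highest genes of each of 7 related lists; other members were named after their values were seen. The members and lists were chosen with earlier results of these data known. Gene assignment was checked on planted peaks. Limits for a count of 0 are 3 counts and cover counting error only. Software: Python 3.11.15, numpy 2.4.6, pandas 2.3.3, scipy 1.17.1, matplotlib 3.10.9.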

Additional observations from a re-analysis of the deposited data

How the results depend on the processing

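Of 35 alternatives, 18 left a count within 1.5 times its value or kept the median near it (30.6 at 500 bp). The other 17 moved it further. The median counted as near when it changed by less than the standard deviation of the replicates' own medians. Except where the construction shows it (fewer peaks, a shorter or longer reach), the cause was not tested. The count of 29 members with a pooled summit became 17 of 33 at 500 bp, against 35.3% of coding genes. At 250 bp the count was 11 of 33, against 22.6%. With the 10000 strongest peaks it was 15 of 33, 45.5% against 23.1%, and with the 5000 strongest 12 of 33, 36.4% against 13.2%. With 1 replicate left out, which is the other replicate's own list and not a new pool, it was 26 to 29. In settings chosen after seeing the data, the 1000 strongest peaks gave 3 of 33, 9.09% against 3.33%. A q of 0.05 or less, also chosen so, gave 5 of 33, against 5.49% of coding genes. The 22 members in both replicates became 12 of 33 at 500 bp, against 17.5% of coding genes, and 7 of 33 at 250 bp, against 9.01%. At 2000 bp they became 32 of 33, against 52.7%. They became 10 of 33 and 4 of 33 with the 10000 and 5000 strongest peaks of each list, against 11% and 5.78% of coding genes. At a q of 0.05 or less they became 2 of 33, against 2.49%. The 0 members with an IDR summit became 3 of 33 at 2000 bp, 9.09% against 0.981% of coding genes. The 15 members with the same strongest site became 11 of 33 at a distance of 500 bp, against 12.4% of coding genes. They became 8 of 33 when at least 50% of the shorter peak had to overlap, against 11.9% of coding genes. With summits within 100 bp they became 7 of 33, 21.2% against 8.17%. The median pooled signal of 30.9 became 41.5 at 2000 bp, and that of all coding genes with a summit went from 27.8 to 29.4. In the replicates' own lists the member median was 17.7 to 21.6, on scales that need not be the same. These medians were set against the pooled 30.9 and count among the 17, so their moves do not measure a change in strength. Agreement between replicates cannot be computed without either of them. No paired analysis was possible because there is 1 group. The unknown depth limits what weak peaks show: the pooled q of member peaks ran up to 0.921.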
